A study of Arabidopsis thaliana with 4 samples.

Results

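The genes described here form a run on the long arm of Arabidopsis thaliana chromosome 5, from AT5G41860 to AT5G54090 in locus order, which is the order of the gene identifiers along the chromosome. The run was chosen from the mutant arrays themselves, because it held many genes at least 2-fold from wild type in both mutants. Its members are the genes in that interval with a probe annotated to a single gene: 464 of the 9253 genes so measured in the series, and 34.4% of the 1349 protein-coding loci listed for the interval. The rule leaves out 7 further measured loci and the tubulin genes, of which 0 had such a probe here. Of those 7 left-out loci, 6 were at least 2-fold from wild type on the same side in both mutants, so the counts below are lower than those of the unbroken interval. The ends of the run were also set by values, since its first and last members are both at least 2-fold in both mutants.

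The series held 4 arrays with 2 dyes each, 1 for each condition. Plants carrying fas1-2 (a mutation in the p150 subunit of chromatin assembly factor 1, CAF-1) or fas2-2 (a mutation in its p60 subunit) were each set against wild type. Wild type that had received 100 Gy of gamma-rays (dose rate 300 Gy/h) was sampled 6 h or 12 h later, each time set against wild type without irradiation. Every plant was of the Nossen ecotype, 4 weeks old and grown on solidified medium; the tissue is given as rosette leaves in the sample labels and as shoots of seedlings in the design text. How many plants were pooled, and whether 1 wild-type RNA served several arrays, is not stated, and the mutated genes themselves were not analysed here, so the genotypes were not checked. Values are log2 ratios of mutant over wild type or irradiated over non-irradiated, read as red over green, with the log base and the direction taken from the scanner software, because the labels do not state them.

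CAF-1 is a histone chaperone: it loads H3 and H4 onto DNA just behind the replication fork, and plants that lack it still grow, with altered meristems and less compact chromatin. Gamma-rays break both strands of DNA and set off a checkpoint and repair response. Plant chromosomes carry many small groups of neighbouring gene copies, but most neighbouring genes differ in function and in the tissues that use them. A stretch of chromosome is therefore a set of genes joined by position, not by a pathway.

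The medians of the run lay close to 0 on all 4 arrays. Its spread was set beside that of the rest of chromosome 5 and that of all genes. The median log2 ratio of its members was -0.0071 in fas1-2, -0.0076 in fas2-2, 0.0098 at 6 h and 0.030 at 12 h. Over all genes the medians were -0.0029, -0.0081, 0.00025 and 0.0047 on the same arrays. The interquartile range of the members was 0.298 log2 units in fas1-2 and 0.311 in fas2-2, close to 0.289 and 0.297 in the rest of chromosome 5. At 6 h it was 0.310 in the run against 0.276, and at 12 h 0.231 against 0.233. Over all genes it was 0.278 at 6 h and 0.2315 at 12 h. The SD, which is moved by extreme genes, was 0.455 in fas1-2 and 0.505 in fas2-2 in the run. It was 0.375 and 0.377 in the rest of the chromosome, and 0.379 and 0.400 over all genes. The run was chosen for its genes at least 2-fold in both mutants. Its mutant SD, and its mutant shares past 3-fold given below, therefore describe the choice and are not evidence for it. After irradiation the SD in the run was 0.380 at 6 h and 0.342 at 12 h. It was 0.344 and 0.292 in the rest of the chromosome, and 0.373 and 0.315 over all genes. Ratios of at least 3-fold were held by 1.51% of members in fas1-2, 1.72% in fas2-2, 0.431% at 6 h and 0.862% at 12 h, against 0.980%, 0.807%, 0.461% and 0.231% in the rest of the chromosome. Over all genes these shares were 0.800%, 0.908%, 0.638% and 0.4755% on the same arrays. The wider interquartile range at 6 h thus lay in members with moderate ratios, not in those past 3-fold. No condition was measured on more than 1 array, so these spreads are over genes. For scale, 48 transcripts spotted more than once on the arrays had a pooled SD between spots of 0.24 to 0.28 log2 units.

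In fas1-2, 23 members (4.96%) stood at least 2-fold from wild type, 15 of them higher and 8 lower, against 42 of 1735 genes (2.42%) in the rest of chromosome 5. The background over all genes of the series was 2.86%, made up of 1.58% higher and 1.29% lower. In fas2-2, 18 members (3.88%) did so, 13 higher and 5 lower, against 52 genes (2.997%) in the rest of the chromosome and a background of 3.11% (1.77% higher, 1.34% lower). The same side was taken in both mutants by 10 members (2.16%), 8 higher and 2 lower. In the rest of chromosome 5 this held for 14 genes (0.807%), 6 higher and 8 lower, and over all genes for 0.919% (0.486% higher, 0.432% lower). These mutant counts are what the run was chosen on, so they describe the choice and are not evidence for it. By limma, 11 of all genes (0.119%) were called in the mutants, and 1 of these was a member. All 11 calls were lost with centred or scaled arrays, robust moderation or the mutants fitted alone. The call of that member rests on the mutant values the run was chosen on, so it is not evidence for the run.

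The irradiated arrays had no part in the choice, but their ratios correlated with those of the mutant arrays. Pearson correlations over all features were 0.60 to 0.66 between a mutant and an irradiated array. They were 0.76 between the 2 mutants and 0.73 between the 2 times. Wild type was in green on every array, so a shared dye or control effect cannot be told apart from a shared response. At 6 h, 13 members (2.80%) were at least 2-fold from non-irradiated wild type, 10 higher and 3 lower, against 43 genes (2.48%) in the rest of chromosome 5. The background at 6 h was 2.89% (1.88% higher, 1.01% lower), so the share in the run was near it. At 12 h, 12 members (2.59%) were, 6 higher and 6 lower, against 21 genes (1.21%) in the rest of the chromosome and a background of 1.65% (0.908% higher, 0.746% lower). With the arrays scaled to 1 common spread, the 12 h count became 16 members (3.45%), against a background of 2.69%. The same side at both times was taken by 3 members, 2 higher and 1 lower, against 6 genes in the rest of the chromosome and a background of 0.346% (0.281% higher, 0.0648% lower). At a lower threshold of 1.5-fold, the share at 6 h was above the background: 51 members (11.0%), against 7.44% in the rest of the chromosome and 8.38% over all genes. At 12 h it was 31 members (6.68%) against a background of 5.66%. In the mutants, on which the run was chosen, 1.5-fold gave 50 members in fas1-2 (background 8.31%) and 48 in fas2-2 (background 9.46%). Each of these counts comes from single arrays, and their difference from the background was not tested.

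**Figure D1:**
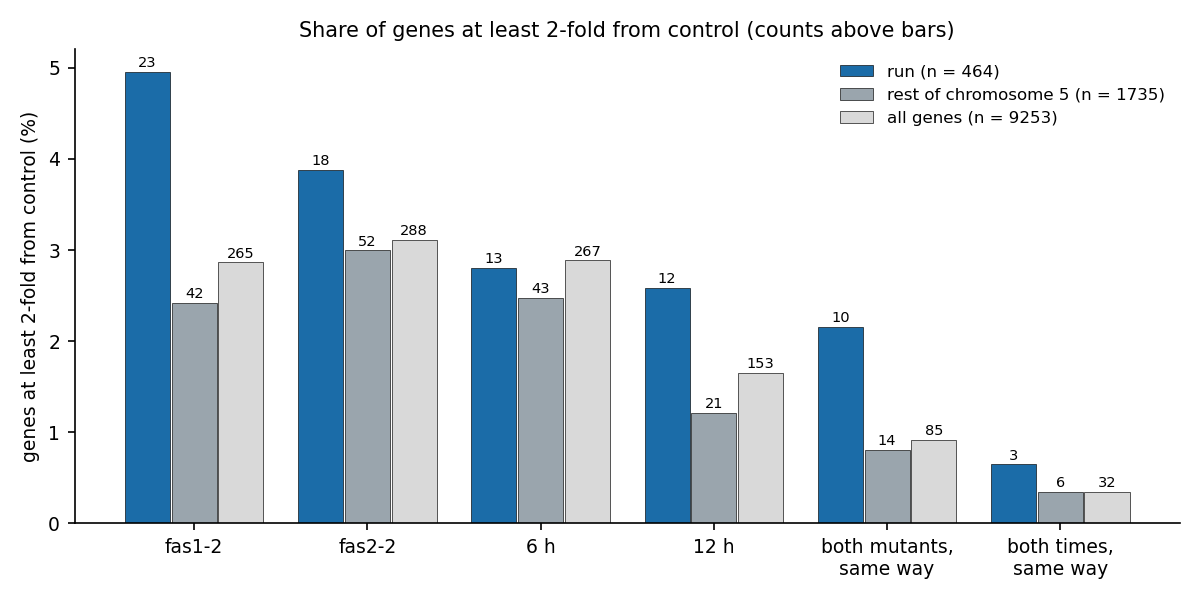
Percentage of genes at least 2-fold from control on each array, and the same way on both mutant or both irradiated arrays, for the run, the rest of chromosome 5 and all genes, with the counts above the bars. The run had 23 genes in fas1-2 and 10 the same way in both mutants, shares above those of the other sets, while its 13 genes at 6 h were a share close to that of all genes. The mutant values are those the run was chosen on.

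Of the 464 members, 51 (11.0%) were at least 2-fold on at least 1 array, against 8.03% of all genes, and 413 on none. In either mutant there were 31 such members (6.68%), against 5.04% of all genes, with 13 of them in fas1-2 alone, 8 in fas2-2 alone and 10 in both, and 0 took opposite sides. At either time after irradiation there were 22 (4.74%), against 3.98% of all genes, with 10 at 6 h alone, 9 at 12 h alone and 3 at both. In all, 2 members, AT5G49500 and AT5G45720, were at least 2-fold both in a mutant and at a time after irradiation. For this overlap, for genes on 1 array alone and for opposite sides, no share over all genes was counted. These numbers therefore only describe the run.

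The members at least 2-fold were spread along the run. Cut in locus order into 4 sections of 116 members, the run held 5, 4, 9 and 5 such members in fas1-2 and 5, 3, 5 and 5 in fas2-2. Higher members in fas1-2 numbered 2, 2, 6 and 5 in the 4 sections, and lower ones 3, 2, 3 and 0. In fas2-2 the higher ones numbered 3, 2, 4 and 4, and the lower ones 2, 1, 1 and 1. No trend along the run was tested. The 116 measured genes just before the run held 4 in fas1-2 and 2 in fas2-2, and the 116 just after it held 2 and 1. Neither flank held a gene at least 2-fold the same way in both mutants, and the sections held 3, 1, 3 and 3. The ends of the run were set at such genes, so this contrast describes the choice and is not evidence of a boundary. After irradiation the sections held 3, 3, 5 and 2 at 6 h and 2, 4, 4 and 2 at 12 h. The flanks held 3 before and 2 after at 6 h, and 1 before and 2 after at 12 h.

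**Figure D2:**
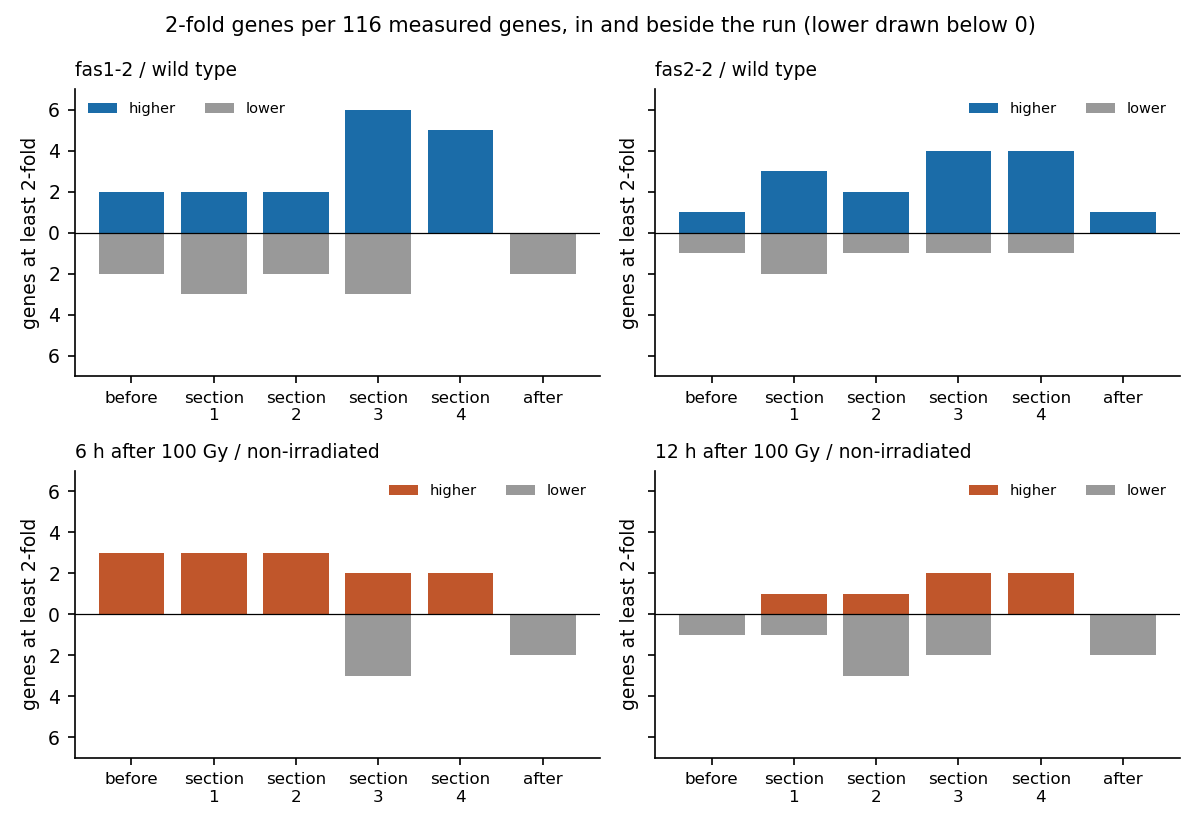
Number of genes at least 2-fold higher (above 0) or lower (below 0) than control in the 4 sections of the run and in the 116 measured genes before and after it, by array. In fas1-2 the sections held 2, 2, 6 and 5 higher genes, and in fas2-2 3, 2, 4 and 4. The flank after the run held 0 higher genes in fas1-2 and 1 in fas2-2. The run and its ends were chosen on the mutant values.

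The other genes of the 5 chromosomes were also taken in consecutive blocks of 464 measured genes, which gave 15 blocks outside the run. In fas1-2 these held 7 to 19 genes at least 2-fold from wild type, with a median of 12, below the 23 of the run. In fas2-2 they held 8 to 24, and 3 of the 15 blocks had at least the 18 of the run. Genes at least 2-fold the same way in both mutants numbered 2 to 6 per block against 10 in the run. The run and its ends were chosen on the mutant values and the blocks were not. Its higher mutant counts therefore describe the choice and are not evidence for it. At 6 h the blocks held 10 to 25, and 7 had at least the 13 of the run. At 12 h they held 3 to 12, and 2 had at least the 12 of the run. The 3 blocks on chromosome 5 itself held 3 to 7 at 12 h.

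**Figure D3:**
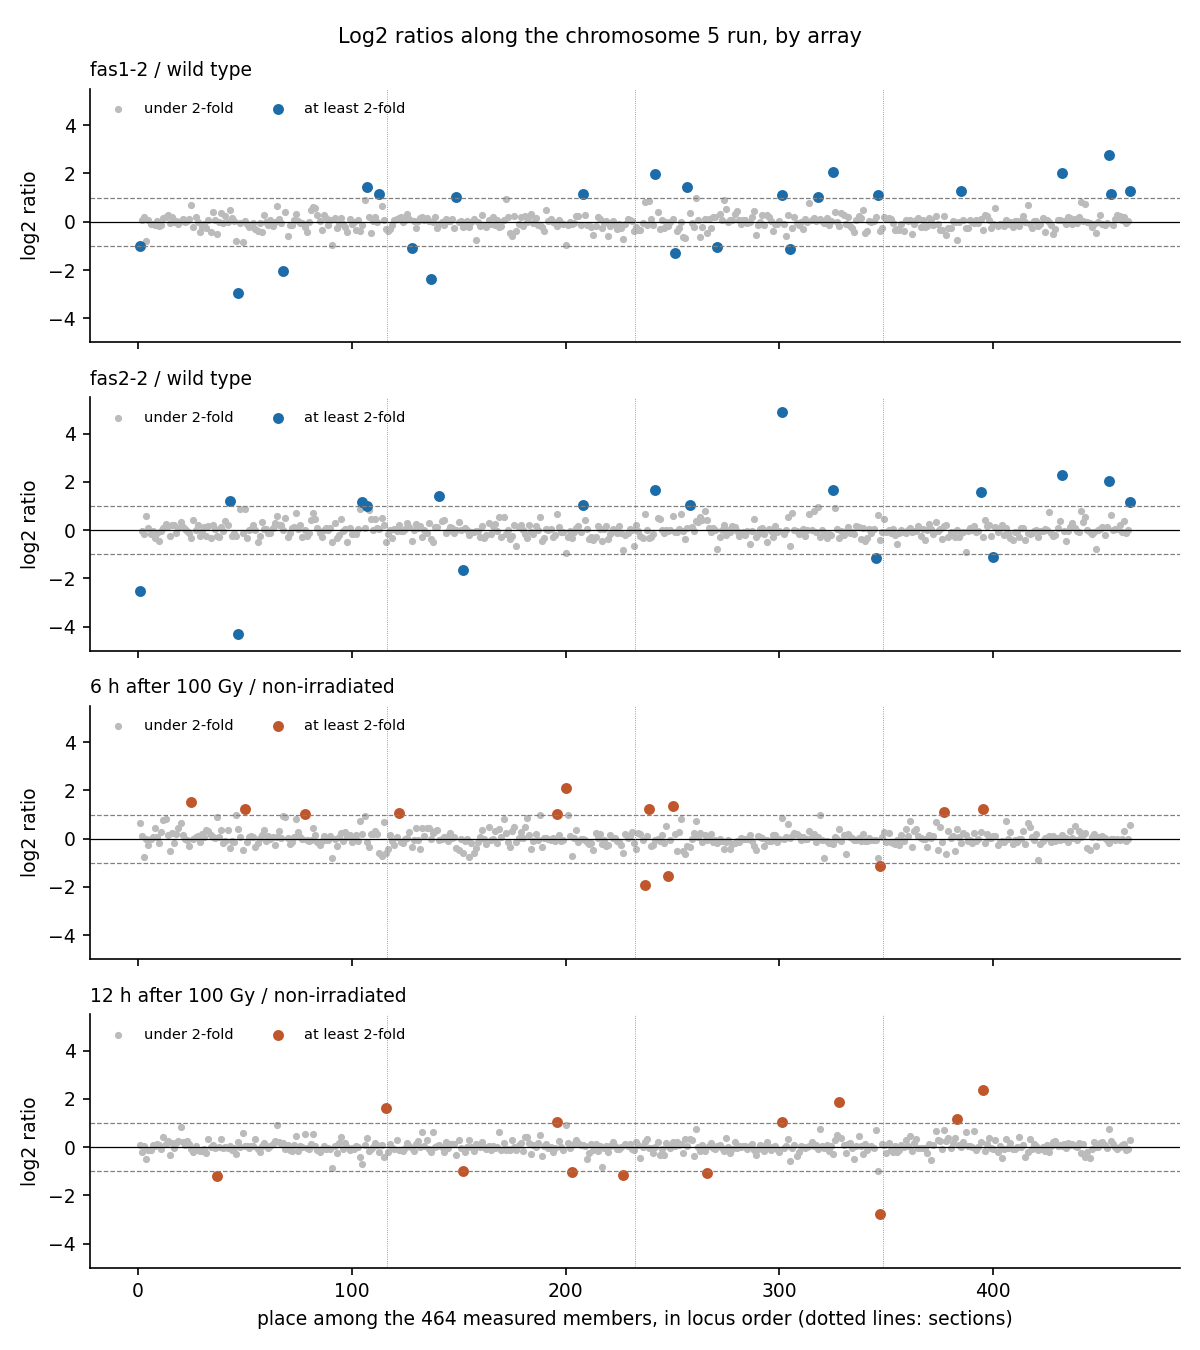
Log2 ratio of each of the 464 members in locus order, 1 panel per array, with members at least 2-fold from control drawn larger, dashed lines at 2-fold and dotted lines between sections. Most members lie close to 0 on every array, with single large ratios between them, up to 4.88 for AT5G49500 in fas2-2 and down to -4.29 for AT5G42850 on the same array.

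None of the 10 members at least 2-fold the same way in both mutants has a symbol in the gene list used, so they are given by identifier and without a role. AT5G42850 stood lowest, at -2.95 in fas1-2 and -4.29 in fas2-2, the lowest ratio of all genes on the fas2-2 array and rank 4 from the lowest on the fas1-2 array. It was at 0.39 at 6 h and 0.21 at 12 h, so that the low values were those of the mutant arrays. AT5G41860, the first member of the run, stood at -1.02 in fas1-2 and -2.53 in fas2-2, against 0.64 at 6 h and 0.077 at 12 h. These were the only 2 of the 10 below wild type.

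AT5G53820 had 2.76 in fas1-2, 2.05 in fas2-2, -0.19 at 6 h and 0.77 at 12 h. AT5G53150 stood at 2.00 and 2.29 in fas1-2 and fas2-2, and at 0.16 and 0.037 at 6 h and 12 h. AT5G50100 was at 2.07 and 1.65 in the 2 mutants and at -0.23 and -0.28 at the 2 times. AT5G48020 was at 1.99 and 1.68 in the mutants and at -0.053 and -0.011 after irradiation. These 4 genes were 3.14-fold to 6.79-fold above wild type in the mutants, and after irradiation their ratios were near 0 except that of AT5G53820 at 12 h.

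AT5G49500 differed most between the mutants, at 1.12 in fas1-2 and 4.88 in fas2-2, the highest ratio of all genes on the fas2-2 array. It was also above control after irradiation, at 0.87 at 6 h and 1.06 at 12 h, and was the only one of the 10 to be at least 2-fold on an irradiated array. Its irradiated mean of 0.96 (SE 0.97) did not pass in limma (adjusted p = 0.681); the SE takes in the gap between the mutants, because all 4 arrays share 1 estimate of the spread. AT5G44400 stood at 1.42 and 1.02 in fas1-2 and fas2-2, AT5G54090 at 1.27 and 1.16, and AT5G47250 at 1.17 and 1.06. At 6 h and 12 h the ratios were -0.13 and 0.36 for AT5G44400, 0.56 and 0.30 for AT5G54090, and -0.016 and 0.10 for AT5G47250. Of the 10 genes, 7 were within 1.5-fold of control at both times.

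**Figure D4:**
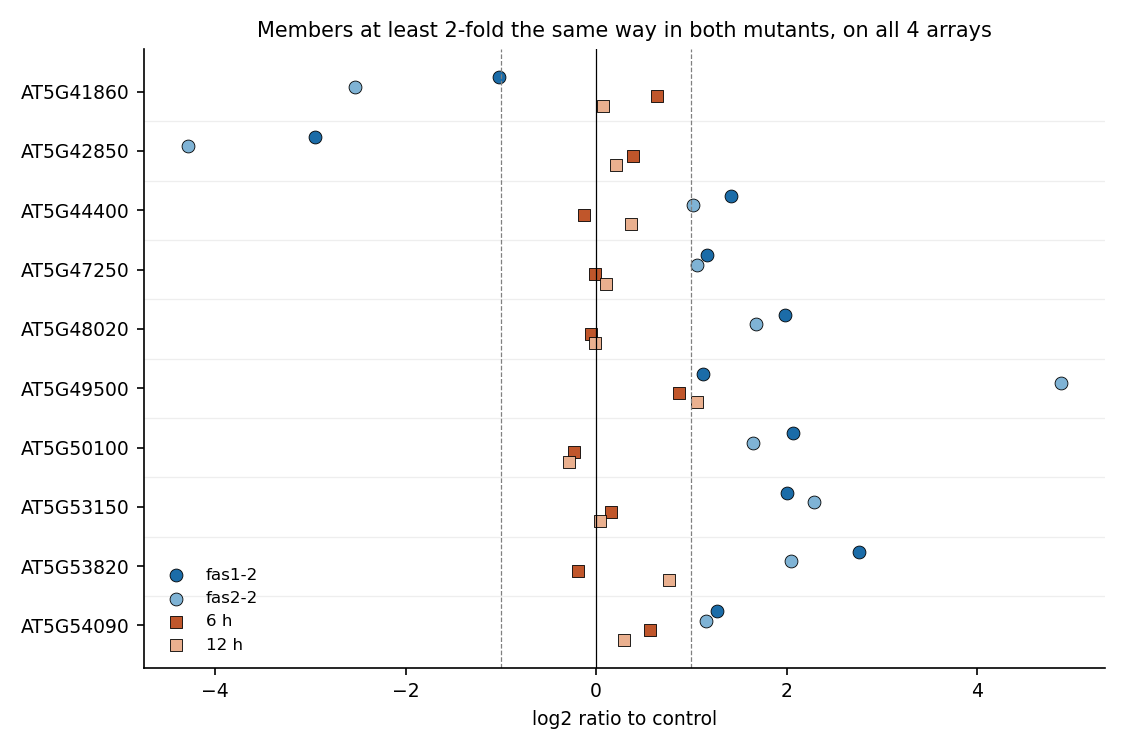
Log2 ratios of the 10 members at least 2-fold the same way in both mutants, on all 4 arrays (circles for the mutants, squares for irradiated wild type, dashed lines at 2-fold). Mutant values lie beyond the dashed lines by the choice of these genes, and the irradiated values lie between -0.28 and 1.06.

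The nearest measured neighbours of these 10 genes were set beside all genes. Of the 20 genes measured next to them on either side, 1 was at least 2-fold from wild type in a mutant, a share near the 5.04% of all genes. That gene was AT5G53880, beside AT5G53820, at 1.14 in fas1-2 and 0.64 in fas2-2. At 1.5-fold in either mutant there were 6 of the 20, against 14% of all genes, a difference that was not tested. Of these 6, 2 flank AT5G44400 and 2 flank AT5G42850. The neighbours of AT5G42850 lay on opposite sides, AT5G42830 at -0.80 in fas1-2 and AT5G42860 at 0.87 in fas2-2. The median size of the neighbours' log2 ratios was 0.0874 in fas1-2 and 0.180 in fas2-2, against 0.147 and 0.152 over all genes. Since 34.4% of the loci in the interval were measured, the nearest measured neighbour is often not the adjacent gene.

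Just inside the 2-fold line for both mutants were AT5G41860, AT5G44400 and AT5G47250, whose smaller ratios had sizes of 1.02, 1.02 and 1.06. Just outside it were AT5G49950, at 1.04 and 0.97 in fas1-2 and fas2-2, and AT5G47050, at -0.97 and -0.94. PMEPCRF (AT5G53370), a pectin methylesterase that modifies cell wall pectin, followed at 0.83 and 0.79. At the ends, the 2 measured genes before the run, AT5G41800 and AT5G41810, lay between -0.26 and 0.16 in the mutants. Those after it were AT5G54150, at 0.062 and 0.28, and AT5G54170, at -0.57 and 0.24.

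Other members were far from wild type in 1 mutant only. AT5G45430 stood at -2.38 in fas1-2 and -0.35 in fas2-2, AT5G43440 at -2.05 and 0.0025, and AT5G48340 at -1.28 and -0.069. AT5G48490 (1.44 in fas1-2, 0.072 in fas2-2) and AT5G51890 (1.28, -0.11) were high in fas1-2 alone. In fas2-2 alone, AT5G52070 was high (1.56, with 0.12 in fas1-2) and so was AT5G45490 (1.42, with -0.079). AT5G45720 stood at -1.64 in fas2-2 and -0.20 in fas1-2. With 1 array for each mutant, these differences could not be tested.

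SWEET genes encode membrane transporters that let sugars leave cells, and 3 of them were members. SWEET10 (AT5G50790) and SWEET13 (AT5G50800), which follow each other in the run, had unlike values. SWEET10 had 0.21 in fas1-2, -1.13 in fas2-2, and -0.073 at 6 h and 0.69 at 12 h. SWEET13 had 1.12 in fas1-2, 0.65 in fas2-2, and -0.79 at 6 h and -0.97 at 12 h. SWEET13 was thus above wild type in both mutants and below non-irradiated wild type at both times (irradiated mean -0.88, SE 0.14, limma adjusted p = 0.231). SWEET3 (AT5G53190) lay between -0.046 and 0.13 on all 4 arrays.

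A single stretch of the run held 3 or more consecutive measured members at least 1.5-fold above wild type in 1 mutant or the other. Such stretches were not counted outside the run, and this stretch was picked out after its values were seen. It comprised 5 genes, AT5G44360, AT5G44380, AT5G44390, AT5G44400 and AT5G44410. In fas1-2 they stood at -0.38, -0.14, 0.92, 1.42 and 0.20, and in fas2-2 at 0.89, 1.19, 0.086, 1.02 and 0.84. AT5G44400 alone was high in both mutants; of the other 4, AT5G44360, AT5G44380 and AT5G44410 were high in fas2-2 and AT5G44390 in fas1-2. At 6 h, 3 of the 5 were above control (0.72, 0.19 and 0.94 for the first 3), and at 12 h the 5 lay between -0.71 and 0.36. Probe sequences were not used here, so signal shared between similar neighbours could not be checked. No such stretch was found below wild type in the mutants, or on either side after irradiation.

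After irradiation no member passed in limma at an adjusted p under 0.05, and no gene of the series did (0%). At an unadjusted p under 0.05 there were 66 members (14.2%), against a background of 14.6% (1354 genes), so the share in the run was near that of all genes. Of the 66 members, 43 lay above control and 23 below it, and over all genes 695 lay above and 659 below. The difference between these splits was not tested, and none of these genes passed adjustment. The smallest adjusted p among members was 0.197, for AT5G51540, which stood at 0.70 at 6 h and 0.67 at 12 h (mean 0.68, SE 0.067). This test has 2 residual degrees of freedom and leaves out the spread of the control. It takes as error both the gap between the 2 times and the gap between the 2 mutants, on which the run was chosen. With the irradiated arrays fitted alone, 64 of 464 members and 1138 of 9253 genes had an unadjusted limma p under 0.05.

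The highest member over both times was AT5G52160, at 1.22 at 6 h and 2.37 at 12 h, the sixth highest ratio of all genes at 12 h; it was at -0.34 in fas1-2 and -0.29 in fas2-2. Its irradiated mean was 1.79 (SE 0.30, limma adjusted p = 0.231). AT5G46950 stood at 1.03 at both times (adjusted p = 0.253 in limma), with -0.16 in fas1-2 and 0.66 in fas2-2. AT5G50830 was the lowest, at -1.11 at 6 h and -2.79 at 12 h, the third lowest ratio of all genes at 12 h, with -0.40 and -0.42 in the mutants (adjusted p = 0.258 in limma). AT5G47050 took opposite sides in the 2 settings, at 2.08 at 6 h and 0.91 at 12 h but -0.97 in fas1-2 and -0.94 in fas2-2. Its irradiated mean of 1.49 (SE 0.31) had an adjusted p of 0.249 in limma.

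The other members at least 2-fold after irradiation were so at 1 time only. At 6 h alone, AT5G42250 stood at 1.51 (with -0.074 at 12 h), AT5G48290 at 1.37 (0.22), AT5G47950 at 1.25 (-0.045) and AT5G42910 at 1.22 (0.042). AT5G47920 was at -1.94 at 6 h and 0.21 at 12 h, and AT5G48210 at -1.54 and 0.052. At 12 h alone, AT5G50130 stood at 1.88 (with 0.40 at 6 h) and AT5G44630 at 1.63 (-0.59). AGL71 (AT5G51870), a MADS-box transcription factor gene linked to flowering, was at 0.42 at 6 h and 1.16 at 12 h, while its neighbour AGL72 (AT5G51860) was at -0.52 and 0.36. AT5G42530 crossed sides, at 0.88 at 6 h and -1.19 at 12 h. The anther genes AMS, SHT and ATA27, which were 3 measured of 4 listed anther markers, also stood high at 12 h, at 2.83 to 3.42, against -1.11 to 1.73 at 6 h; their part in the 12 h values of the run was not tested.

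**Figure D5:**
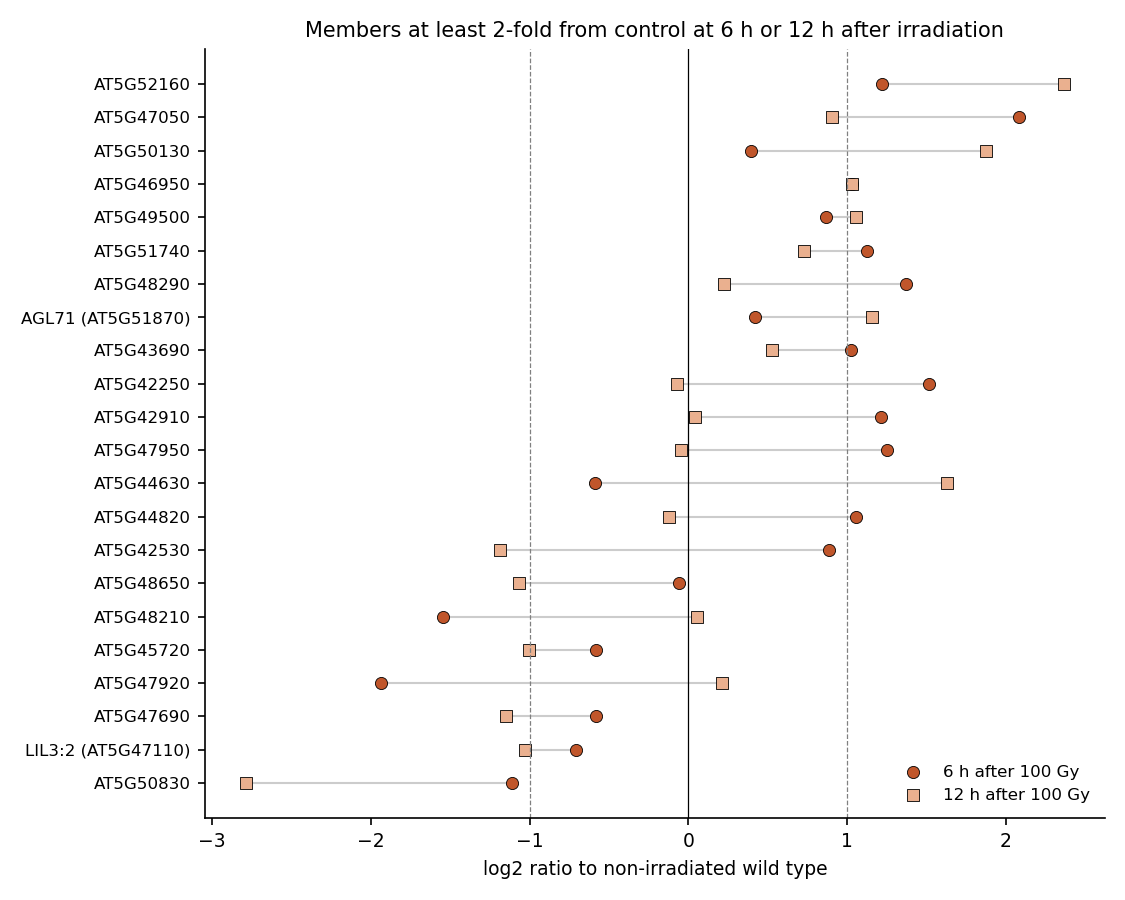
Log2 ratios at 6 h (circles) and 12 h (squares) after 100 Gy for the 22 members at least 2-fold from non-irradiated wild type at either time, ordered by their mean, with dashed lines at 2-fold. Only AT5G52160, AT5G46950 and AT5G50830 lie beyond a dashed line at both times.

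Of the 464 members, 55 had a symbol. Of these, 5 (9.09%, against 8.03% of all genes) were at least 2-fold on an array (SWEET10, SWEET13, AGL71, CYTC6A and LIL3:2). Another 41 were within 1.5-fold of control on all 4 arrays, and the matching share over all genes was not counted. Of 14 listed chloroplast genes 5 were measured, and 1 of them was at least 2-fold on an array, against 8.03% of all genes. This was LIL3:2 (AT5G47110), a light-harvesting-like protein needed for chlorophyll synthesis, which stood at -0.71 at 6 h and -1.03 at 12 h, with -0.097 in fas1-2 and -0.34 in fas2-2 (irradiated mean -0.87, SE 0.12, limma adjusted p = 0.223). CHLI2 (AT5G45930), a subunit of the magnesium chelatase of chlorophyll synthesis, was at -0.57 and -0.17 after irradiation, and CLPP4 (AT5G45390), a subunit of the chloroplast Clp protease, at 0.46 and 0.31. CYTC6A (AT5G45040), a cytochrome c6-like protein of the thylakoid, stood at -1.08 in fas1-2 and -0.46 in fas2-2.

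Of 19 loci listed for DNA replication, repair and chromatin, 2 were measured in the run, and they had unlike values. AT5G47690, which has no symbol in the table used, was below control on all 4 arrays, at -0.73 in fas1-2, -0.81 in fas2-2, -0.58 at 6 h and -1.15 at 12 h (irradiated mean -0.87, SE 0.16, limma adjusted p = 0.241). No dyes were swapped, so a dye effect on AT5G47690 cannot be told apart from a change in its RNA. POLH (AT5G44740), the DNA polymerase that copies past damaged bases, had 0.096 in fas1-2, -0.019 in fas2-2, 0.058 at 6 h and 0.31 at 12 h. Outside that list, ATIM (AT5G52910), the TIMELESS homologue, whose relatives in animals and yeast steady the replication fork, was at -0.19 and -0.26 in the mutants and at -0.87 and -0.14 at 6 h and 12 h (limma adjusted p = 0.366). CUL4 (AT5G46210), the scaffold of a ubiquitin ligase used in DNA repair and light signalling, lay between -0.27 and 0.057 on all arrays.

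Of 15 loci listed for cold, drought and heat stress, 3 were measured and none was at least 2-fold on an array, against 8.03% of all genes. AT5G48570, which has no symbol, was above control on all 4 arrays, at 0.96 in fas1-2, 0.39 in fas2-2, 0.73 at 6 h and 0.75 at 12 h (irradiated mean 0.74, SE 0.16, limma adjusted p = 0.253). Without a dye swap, a dye effect on this gene cannot be told apart from a change in its RNA. COR27 (AT5G42900), a cold-regulated gene tied to the circadian clock, took both sides, at -0.85 in fas1-2, -0.13 in fas2-2, -0.45 at 6 h and 0.59 at 12 h. BOB1 (AT5G53400), a small chaperone, lay between 0.021 and 0.33. Both measured genes of 17 listed for hormones stayed under 2-fold. MYC3 (AT5G46760), a transcription factor of jasmonate signalling, lay between -0.0042 and 0.21, and HAT2 (AT5G47370), an auxin-responsive homeodomain factor, between -0.30 and 0.13. None of the 7 measured of 12 listed cell wall and phenylpropanoid genes was at least 2-fold on an array. Of those with a symbol, HCT (AT5G48930), an acyltransferase of lignin synthesis, lay between -0.17 and 0.31 and XTH20 (AT5G48070), a xyloglucan-modifying enzyme, between -0.32 and 0.45, while PMEPCRF was at 0.065 at 6 h and -0.25 at 12 h.

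Of 41 loci listed as NBS-LRR resistance genes, a class of receptors that detect pathogens, 12 were measured, and none of the 12 has a symbol. AT5G47250 and AT5G45490, given above, were the members of that list at least 2-fold on an array, against 8.03% of all genes. With 12 genes measured, the difference from that share was not tested. At 6 h and 12 h the 12 genes lay between -0.21 and 0.62. Of 5 loci listed for the cell cycle, 0 were measured.

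The root markers, of which 6 of 7 were measured, lay between -0.28 and 0.34 in fas1-2 and between -0.50 and 1.003 in fas2-2, where PYK10 was highest. RCA, the single measured leaf marker of 6, was at -0.053 in fas1-2, -0.20 in fas2-2, -0.49 at 6 h and -0.17 at 12 h. Ratios give no level, so the labelled tissue could not be checked, and fewer cells of a type cannot be told apart from less RNA per cell. The part of root tissue in the fas2-2 values of the run was not tested.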

How the data were processed

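RNA was measured on 4 Agilent Arabidopsis 2 arrays with 2 dyes. The deposited values are log10 ratios per feature, red over green as read here, made by the authors with Agilent Feature Extraction, per the submitters' processing notes; version, background correction and dye normalization are not given in the sources used here. Column medians were near 0, so the arrays came centred, and the log base and sign stay unstated. Green was wild type on every array, per the labels, with no dye swap. No intensities were used, so signal over background was not judged, and the number of arrays limits the precision.

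Values were multiplied by 3.32 to give log2. Of 22575 features, 9335 had 1 gene name in the platform annotation, 40 several and 13200 none; 9317 matched the reference list (TAIR10.1) by gene identifier. Probes of a gene were averaged (1 member had 2). No coordinates are given because the array's build is not named.

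limma (version 3.58.1, R 4.3.3), tested on simulated data, was fitted to all 9253 genes with 1 mean for the mutants and 1 for the irradiated arrays, each against 0, with Benjamini-Hochberg adjustment. The labels name no separate cultures, so p-values measure the spread between these arrays.

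The members, lists and rule for named genes were chosen with earlier results of these data known. Named genes are members at least 2-fold the same way on both arrays of a setting; the 6 top and 6 bottom members of each array; the 5 largest differences each way within a setting, genes at the ends, and listed genes at least 2-fold or else the 2 furthest from 0; those that bear on a comparison are printed. Lists by role were set by hand by locus; listed loci without a symbol are given by identifier. Alternatives were centring, scaling, probes for genes, other ends, 1.5-fold, zeros left out and, in limma, robust moderation, separate fits and arrays left out.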

Additional observations from a re-analysis of the deposited data

How the results depend on the processing

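The counts of members at least 2-fold in fas1-2, in fas2-2, at 6 h and at 12 h stayed within 1.5 times under centring, scaling, probes in place of genes, the left-out loci put back, the shorter run from AT5G43000 to AT5G53000 and exact zeros left out. At 1.5-fold they were 50, 48, 51 and 31, more by construction; the 6 h share, near that of all genes at 2-fold (2.80% against 2.89%), was above it at 1.5-fold (11.0% against 8.38%). The count the same way in both mutants was 10. It was 16 with the left-out loci put back, 5 in the shorter run, 21 at 1.5-fold, 7 with scaled arrays and 8 without the first and last members, an alternative chosen after seeing the data. The 11 mutant calls in limma became 0 with centring, scaling, robust moderation or the mutants fitted alone, and 0 to 0 when any array was left out, where the lone array is assumed to vary like the others; the cause was not tested. The irradiation calls were 0 in each of these fits. Of 172 values of named members, 6 moved with scaling by more than the spread between spots and 0 with centring. No paired analysis was possible because each condition had 1 array. Weak signals could not be judged without intensities.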

Other observations

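Genes of the ubiquitin and SUMO pathways, which tag proteins for breakdown or altered function, were grouped by symbol after their values were seen. The ubiquitin-conjugating enzymes were UBC18 (AT5G42990; -0.035 in fas1-2, 0.23 in fas2-2, 0.083 at 6 h, 0.055 at 12 h), UBC33 (AT5G50430; 0.50, 0.087, 0.20, -0.29) and UBC27 (AT5G50870; 0.14, 0.013, 0.22, 0.15). The ligase gene PUB15 (AT5G42340) lay between -0.12 and 0.21, the protease gene UBP21 (AT5G46740) between -0.18 and 0.072, and the SUMO-activating enzyme gene SAE1B (AT5G50580) between -0.044 and 0.046. RPN12b (AT5G42040), named for a subunit of the proteasome lid, stood furthest from control, at 0.77 at 6 h and 0.42 at 12 h, with 0.15 and 0.11 in the mutants. The calmodulin-like genes CML37 (AT5G42380; -0.22, -0.046, 0.18, -0.16) and CML43 (AT5G44460; 0.046, -0.0093, 0.21, 0.0061) lay near 0 on the same 4 arrays.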
